A study of Oryctolagus cuniculus with 9 samples.

Results

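The complement genes described here were 9 components and regulators of the complement system, C1R, C1S, SERPING1, C3, CFB, CFD, CFI, CD55 and CD59, read from an expression table of 19511 loci. A gene was taken where the table's gene name was exactly its symbol, and 7 of the 9 were matched. CFD, the protease factor D, and CD55, the decay-accelerating factor, were not matched and were not analysed here. Of the 7, 5 reached 1 FPKM in 3 or more libraries and were tested among 10996 loci. C3 and CFI lay below 1 FPKM in all 9 libraries and are described by their values.

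Complement is a protease cascade of blood and tissue fluid. C1r and C1s are the proteases of the C1 complex and start the classical pathway, and C1 inhibitor, the product of SERPING1, blocks both. Factor B, encoded by CFB, supplies the protease of the alternative pathway, and C3 is the central component on which the pathways meet. Factor I inactivates the C3b and C4b fragments together with cofactors, and CD59 is a lipid-anchored surface protein that blocks assembly of the terminal pore. The liver makes most circulating complement, while fibroblasts, macrophages and endothelial cells make components locally, and the cascade is widely studied in ischaemia and reperfusion.

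RNA of primary wild-type rabbit cells, labelled as parathyroid cells, was sequenced in 9 libraries, 3 for each of 3 groups. Untreated control cells are labelled day 0. H/R cells had 6 h of hypoxia followed by 6 h of reoxygenation, which models ischaemia and reperfusion in culture. The GA+H/R cells were given 1200 µM gallic acid, a plant phenolic acid, for 24 h and then the same hypoxia and reoxygenation. The study asks what gallic acid pretreatment does in this injury. The labels name no animal or culture for a library, so each p-value measures only the spread between libraries, which may be technical. The groups are not known to be matched for time in culture.

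PTH, the parathyroid hormone gene, was at 0.142, 0.129 and 0.0972 FPKM in controls 1, 2 and 3 and at 0.0439 or less in the GA+H/R libraries. CASR and GCM2, other defining genes of the parathyroid, were not matched, so PTH was the one of these against which the labelled cell type was checked, and it was barely measured. The summed FPKM of a library was 1648012 to 1696488 in the controls, 730117 to 752065 in H/R and 467499 to 516231 in the GA+H/R libraries. The median locus moved on the deposited scale by -1.25 (log2) in H/R versus control, -0.50 in GA+H/R versus H/R and -1.77 in GA+H/R versus control. Each change is given after every library was divided by its typical ratio to the mean library, called here relative to the median locus, and the deposited scale is given beside them. "Rose" and "fell" refer to the first scale unless the second is named. Control 1 stood apart, with a correlation across loci of 0.985 and 0.983 with controls 2 and 3, which correlated at 0.997 with each other. Results that rest on control 1 are given with and without it. In bulk RNA, fewer cells of a type and less RNA per cell cannot be told apart. The 3 comparisons share groups and are not independent of one another.

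After hypoxia and reoxygenation C1R, C1S and SERPING1 fell against control, and CFB and CD59 were not called. The 3 of 5 tested that fell compare with 28.9% of all loci tested that were called lower and 27.6% called higher (limma, Benjamini-Hochberg adjusted p under 0.05). The median log2 change of all 5 was -0.45, against -0.03 over all loci. With gallic acid before the injury, C1R and C1S fell further below H/R, 2 of 5 where 15.2% of all loci were called lower and 18.0% higher, with a median of -0.28 against -0.01. Against control, C1R, C1S and SERPING1 were lower in GA+H/R, 3 of 5 where 36.6% of loci were called lower and 31.9% higher, with a median of -0.59 against -0.09. On the deposited scale 4, 3 and 5 of the 5 were called lower in the same order of comparisons, where 86.0%, 64.3% and 90.1% of all loci were. With control 1 left out, CFB and CD59 were called higher than in control after either injury treatment, H/R or GA+H/R, 2 of 5 in each, where 30.7% and 34.3% of loci were called higher.

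**Figure D1:**
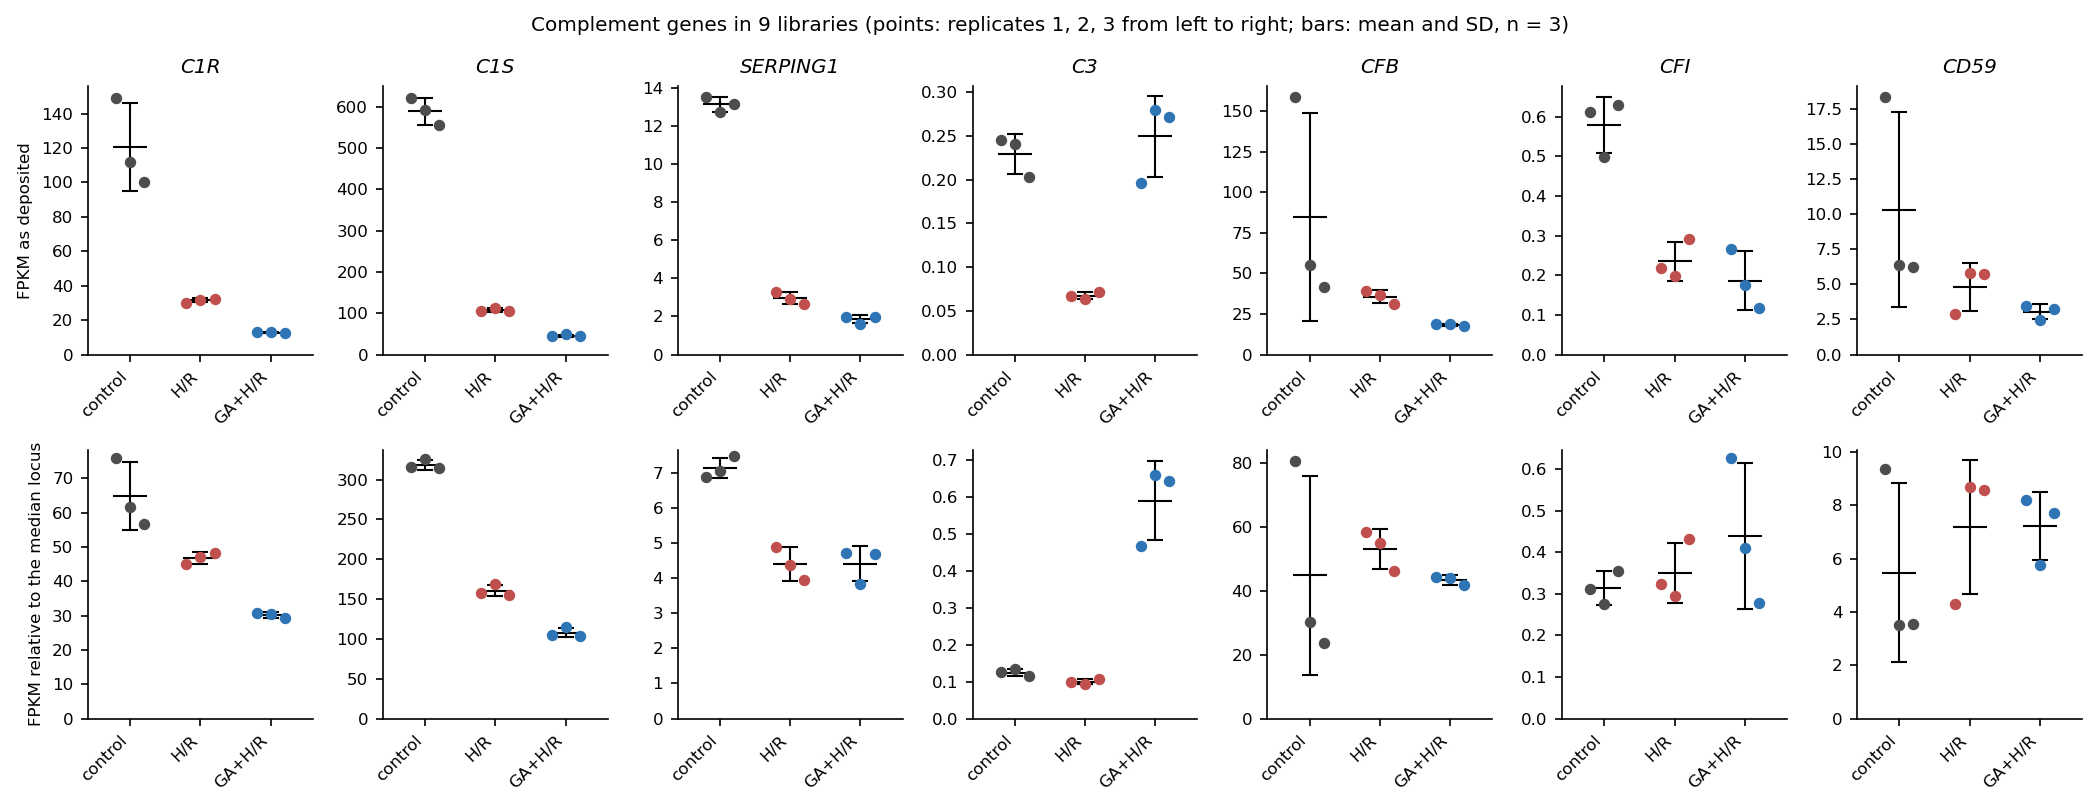
FPKM as deposited (top row) and FPKM relative to the median locus (bottom row) of the 7 complement genes in the table, with 1 point per library, the group mean and the SD (n = 3). C1R and C1S step down from control to H/R to GA+H/R on both scales, C3 is highest in GA+H/R relative to the median locus, and control 1 is the highest of all 9 libraries for CFB and CD59.

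C1S was at 620, 591 and 555 FPKM in controls 1, 2 and 3, at 106, 113 and 104 FPKM in the H/R libraries and at 44.2, 48.6 and 44.0 FPKM in the GA+H/R libraries. The 3 groups did not overlap, and the order of levels was control, H/R, GA+H/R. Relative to the median locus the levels were 315, 326 and 314 in the controls, 158, 168 and 155 in H/R, and 105, 114 and 104 in the GA+H/R libraries. The order was the same on that scale, again without overlap. C1S fell by 0.98 ± 0.06 (log2, SE) in H/R versus control (limma adjusted p = 1.74e-06), a 1.98-fold lower mean level. It fell by a further 0.57 ± 0.06 in GA+H/R versus H/R (adjusted p = 2.04e-04), a 1.49-fold lower mean. The deposited changes were -2.44 ± 0.07 and -1.22 ± 0.07.

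C1R, the partner protease of C1s, was at 149, 112 and 100.4 FPKM in the controls, 30.2, 31.6 and 32.5 FPKM in H/R, and 13.0, 12.9 and 12.4 FPKM in the GA+H/R libraries. It had the same order as C1S, and its groups did not overlap. Relative to the median locus it was at 76.0, 61.6 and 56.8 in the controls, 45.1, 47.1 and 48.4 in H/R, and 30.8, 30.4 and 29.3 in the GA+H/R libraries. Control 1 was the highest library for C1R. C1R fell by 0.45 ± 0.10 in H/R versus control (limma adjusted p = 0.00542), or by 0.31 without control 1 (adjusted p = 0.00483). It fell by 0.62 ± 0.10 in GA+H/R versus H/R (adjusted p = 0.00238), a 1.55-fold lower mean. On the deposited scale these changes were -1.88 ± 0.13 and -1.24 ± 0.13. Against control, GA+H/R was lower by 1.07 ± 0.10 for C1R and by 1.56 ± 0.06 for C1S on the log2 scale relative to the median locus (limma adjusted p = 1.92e-05 and 4.04e-08).

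SERPING1, the inhibitor of both proteases, was at 13.5, 12.8 and 13.2 FPKM in the controls, 3.28, 2.94 and 2.64 FPKM in H/R, and 1.99, 1.63 and 1.98 FPKM in the GA+H/R libraries. Relative to the median locus its levels were 6.88, 7.05 and 7.46 in the controls, 4.89, 4.38 and 3.93 in H/R, and 4.71, 3.83 and 4.68 in the GA+H/R libraries. Both injured groups lay below control on either scale, and on the relative scale they overlapped each other. SERPING1 fell by 0.59 ± 0.11 in H/R versus control (limma adjusted p = 0.00161) and by 0.59 ± 0.11 in GA+H/R versus control (adjusted p = 0.00113). Between GA+H/R and H/R its change was 0.00 ± 0.11 (adjusted p = 0.997) relative to the median locus and -0.46 ± 0.10 (adjusted p = 0.00347) on the deposited scale, where the median locus moved by -0.50. The inhibitor thus passed the test in this comparison on the deposited scale only, while C1R and C1S were called lower on both.

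CFB was at 158, 54.9 and 41.5 FPKM in controls 1, 2 and 3, at 39.0, 36.9 and 31.0 FPKM in H/R, and at 18.7, 18.6 and 17.7 FPKM in GA+H/R. Control 1 was far above controls 2 and 3, and the deposited levels of the 3 groups did not overlap. Relative to the median locus CFB was at 80.6, 30.3 and 23.5 in the controls, 58.3, 54.9 and 46.2 in H/R, and 44.4, 43.9 and 41.7 in the GA+H/R libraries. On that scale control 1 lay above every injured library and controls 2 and 3 below every one. The change in H/R versus control was 0.44 ± 0.37 (limma adjusted p = 0.336) with all libraries, 0.97 (adjusted p = 2.48e-04) without control 1, and -0.99 ± 0.40 (adjusted p = 0.0387) on the deposited scale, or -0.42 (adjusted p = 0.0153) there without control 1. In GA+H/R versus H/R it was -0.28 ± 0.37 (adjusted p = 0.588), and on the deposited scale -0.92 ± 0.40 (adjusted p = 0.0676), or -0.92 (adjusted p = 1.71e-04) without control 1. Against control, GA+H/R was at 0.16 ± 0.37 (limma adjusted p = 0.714), or 0.69 (adjusted p = 0.00138) without control 1, and at -1.90 ± 0.40 (adjusted p = 0.00114) on the deposited scale. It was at -0.18 (adjusted p = 0.644) without control 3 and at -0.21 (adjusted p = 0.652) with equal library totals. The direction and size of CFB against control therefore differed with the scale and with the control left out.

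C3 was at 0.245, 0.241 and 0.203 FPKM in the controls, 0.0672, 0.0632 and 0.0715 FPKM in H/R, and 0.197, 0.280 and 0.272 FPKM in the GA+H/R libraries. The GA+H/R libraries lay above the H/R libraries and overlapped the controls. Relative to the median locus C3 was at 0.125, 0.133 and 0.115 in the controls, 0.10, 0.0941 and 0.106 in H/R, and 0.467, 0.660 and 0.643 in the GA+H/R libraries. On that scale GA+H/R lay above both other groups, and the H/R libraries lay just under control. The mean in GA+H/R was 5.88-fold that in H/R relative to the median locus and 3.71-fold on the deposited scale. An exact two-sided permutation test of the 3 GA+H/R against the 3 H/R libraries gave p = 0.10, the smallest that 3 against 3 allow. Fitted with no filter on low values and 1 added before the log, C3 gave a log2 change of 0.53 (limma adjusted p = 0.00101) in GA+H/R versus H/R, where the added 1 exceeds its level in every library. With 0.01 added in place of 1, chosen after seeing the data, it gave a log2 change of 2.43 ± 0.30 (limma adjusted p = 0.00126) in GA+H/R versus H/R. The depth is unknown, so the number of fragments behind these low values is not known. A further locus described as complement C3 was at 0.0366, 0.0492 and 0.124 FPKM in control, 0.0255, 0.0486 and 0.0379 FPKM in H/R, and listed at 0 in all 3 GA+H/R libraries. Whether reads were shared between the loci is not given in the sources used here, so the level of C3 is uncertain.

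C3 was thus higher with gallic acid than in H/R, where C1R and C1S were lower. The macrophage markers moved in the same direction as C3 in that comparison. Of 15 fixed macrophage markers 13 were in the table and 7 were tested, and 6 of the 7 were called higher in GA+H/R than in H/R on each scale. Of all loci, 18.0% were called higher there relative to the median locus and 1.69% on the deposited scale. The summed level of the 13 markers was 27.2 to 30.0 FPKM in H/R and 203 to 211 FPKM in GA+H/R, and 11.1, 86.8 and 97.9 FPKM in controls 1, 2 and 3. In the same controls C3 was at 0.245, 0.241 and 0.203 FPKM, and the further locus described as complement C3 was at 0.0366, 0.0492 and 0.124 FPKM. CD74 was the marker listed at 0 in all GA+H/R libraries. Fixed hepatocyte markers were in the table for 4 of 12, and their summed level reached at most 1.23 FPKM in any library. The part of macrophage RNA in the values of C3 was not tested.

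CFI, the protease that inactivates C3b and C4b, was at 0.612, 0.498 and 0.628 FPKM in the controls, 0.218, 0.198 and 0.291 FPKM in H/R, and 0.265, 0.174 and 0.118 FPKM in the GA+H/R libraries. Control lay above both injured groups, which overlapped. Relative to the median locus CFI was at 0.275 to 0.356 in the controls, 0.294 to 0.433 in H/R and 0.279 to 0.628 in the GA+H/R libraries, and the 3 groups overlapped. Its log2 ratios of group means on the deposited scale were -1.30 in H/R versus control and -0.34 in GA+H/R versus H/R, near the shifts of the median locus.

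CD59 was at 18.4, 6.36 and 6.27 FPKM in controls 1, 2 and 3, at 2.88, 5.82 and 5.77 FPKM in H/R, and at 3.45, 2.44 and 3.26 FPKM in GA+H/R. Control 1 was high and H/R 1 was low against the other 2 libraries of their groups. Relative to the median locus CD59 was at 9.35, 3.51 and 3.55 in the controls, 4.30, 8.68 and 8.59 in H/R, and 8.18, 5.75 and 7.71 in the GA+H/R libraries, and all 3 groups overlapped. Its change in H/R versus control was 0.40 ± 0.35 (limma adjusted p = 0.356), or 0.79 (adjusted p = 0.0283) without control 1, and -0.84 ± 0.38 (adjusted p = 0.0565) on the deposited scale. In GA+H/R versus H/R it was 0.05 ± 0.35 (adjusted p = 0.934) and -0.49 ± 0.38 (adjusted p = 0.274) on the deposited scale. Against control, GA+H/R was at 0.45 ± 0.35 (adjusted p = 0.282), or 0.83 (adjusted p = 0.0195) without control 1, and at -1.33 ± 0.38 (adjusted p = 0.00695) on the deposited scale.

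**Figure D2:**
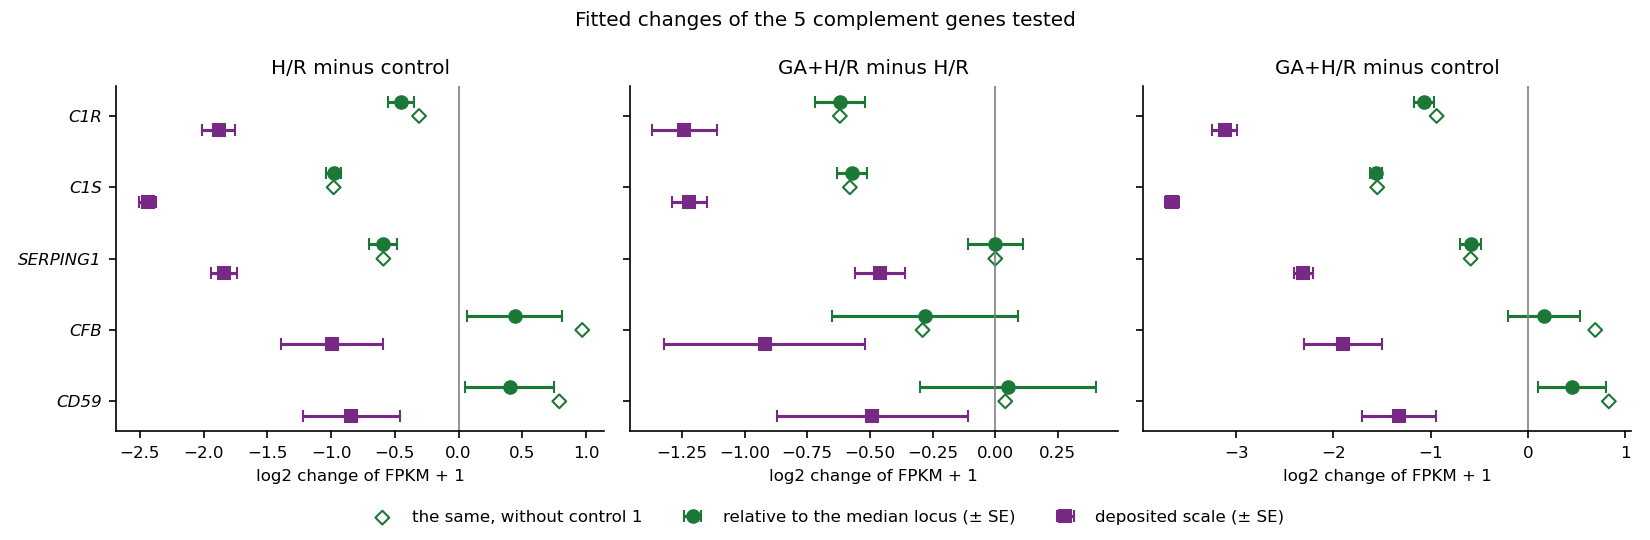
Log2 change of the 5 tested complement genes in each comparison, relative to the median locus (circles, ± SE), the same without control 1 (diamonds) and on the deposited scale (squares, ± SE). C1R and C1S lie below 0 throughout, while CFB and CD59 against control lie above 0 relative to the median locus and below 0 on the deposited scale.

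In the authors' deposited table, a single test across the 3 groups marked C1R, C1S, SERPING1, CFB, CFI and CD59, with q-values from 4.42e-214 for C1S to 0.00107 for CD59. C3 was unmarked there, with a q of 1.

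Dividing a gene's FPKM by that of C1S in the same library removes the scale of the library, and these ratios were chosen after their values were seen. C1S itself fell by 0.98 in H/R and by 1.56 in GA+H/R against control (log2, relative to the median locus). A locus that kept pace with the median locus would therefore rise against C1S by about as much. The log2 ratio of C1R to C1S was -2.05, -2.40 and -2.47 in the controls, -1.81, -1.84 and -1.68 in H/R, and -1.77, -1.91 and -1.83 in the GA+H/R libraries. C1R was thus higher against C1S in every injured library than in any control, by 0.53 on average in H/R, and both injured groups overlapped. The log2 ratio of SERPING1 to C1S was -5.48 ± 0.07 in the controls, -5.19 ± 0.16 in H/R and -4.62 ± 0.25 in the GA+H/R libraries (SD, n = 3), with no overlap between groups. The ratio of the inhibitor to C1S thus rose by 0.29 in H/R versus control and by 0.58 in GA+H/R versus H/R. C1S itself fell by 0.98 and 0.57 in these comparisons relative to the median locus. The log2 ratio of SERPING1 to C1R, its other target, was -3.17 ± 0.27 in the controls, -3.42 ± 0.21 in H/R and -2.78 ± 0.18 in the GA+H/R libraries (SD, n = 3). Against C1R it did not rise in H/R versus control, where the groups overlapped (difference -0.24, exact two-sided permutation p = 0.30). GA+H/R lay above H/R without overlap (difference 0.63) and overlapped control (difference 0.39, exact p = 0.20). The log2 ratio of CFB to C1S was -1.97, -3.43 and -3.74 in controls 1, 2 and 3, -1.60 ± 0.16 in H/R and -1.31 ± 0.07 in the GA+H/R libraries, again without overlap. The log2 ratio of C3 to C1S was -11.33 ± 0.08, -10.64 ± 0.15 and -7.53 ± 0.25 in the same order. Each of these non-overlapping contrasts had an exact two-sided permutation p of 0.10, the smallest that 3 against 3 allow.

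**Figure D3:**
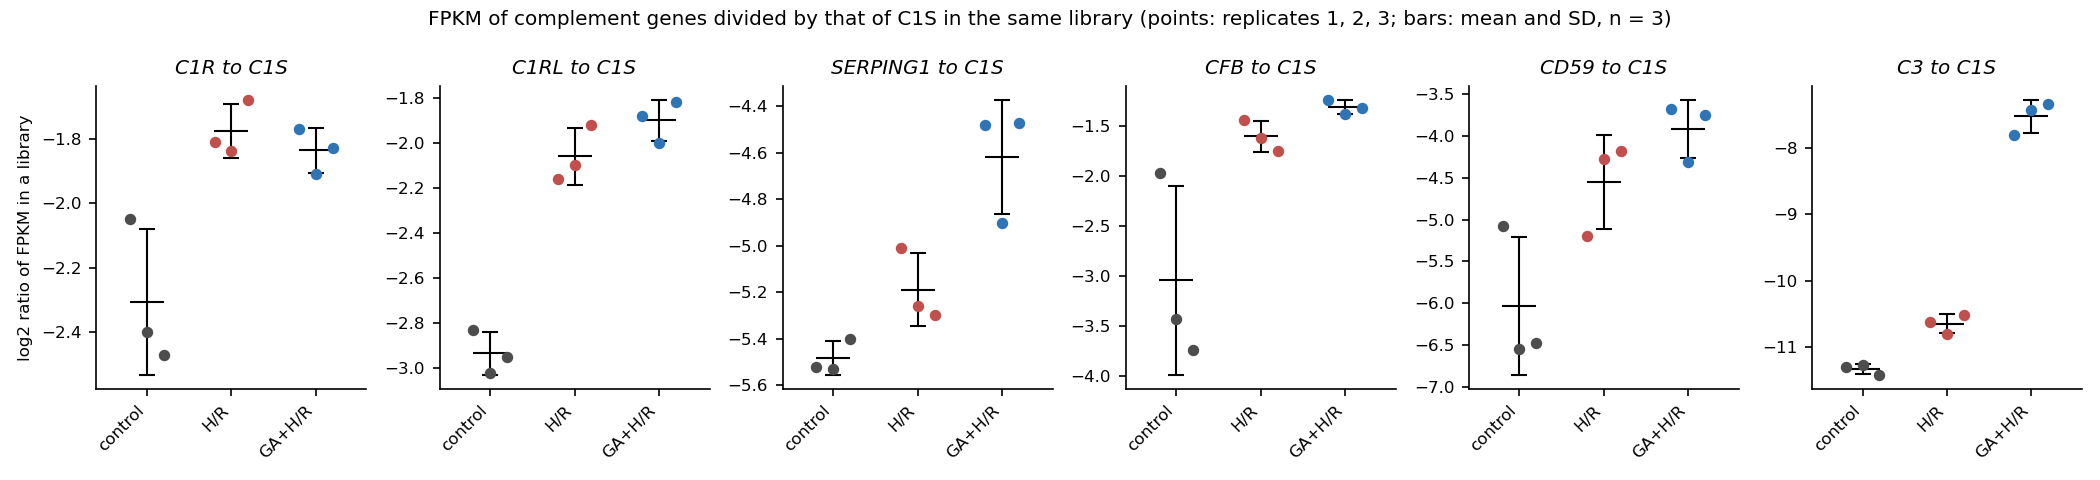
Log2 ratio of the FPKM of each gene to that of C1S in the same library, with 1 point per library, the group mean and the SD (n = 3). Ratios of SERPING1, CFB and C3 are lowest in control and highest in GA+H/R without overlap. C1S itself fell in both steps, so a gene that kept pace with the median locus would rise in this ratio too.

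Among the 5 tested genes, C1R and C1S had the highest correlation of levels over the 9 libraries, a Pearson r of 0.941. SERPING1 correlated with C1S at 0.872, and CFB with CD59 at 0.681, where the points share control 1 as an extreme. CFB and C1S correlated at -0.188. C1R and C1S lie next to each other, with C1RL on the other side of C1R, in the RefSeq annotation of the rabbit assembly mOryCun1.1, and the table gives each a locus of its own. Of 8484 named loci, those most like C1S over the 9 libraries were LRP6 (r = 0.9959), TMEM245 and LGR4. Those most like C1R were SF3B1 (r = 0.9966), FAS and GPR107, and those most like SERPING1 were NUP155 (r = 0.9933), KPNA6 and TRA2B. EPAS1 (r = 0.9410), ULK2 and PTGS1 were nearest to CFB, and ABCF3 (r = 0.8963), SMAP2 and CUTC to CD59, so the likeness was weaker for those members. The points of each r share the 3 group means.

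Of 62 further complement genes on the lists 32 were in the table and 8 were tested, and with gallic acid the 3 regulators among them fell below H/R while a pair of leukocyte receptors rose. In H/R versus control 2 rose and 2 fell, and in GA+H/R versus H/R 2 rose and 5 fell, where 27.6% and 28.9% of all loci were called higher and lower in the first comparison and 18.0% and 15.2% in the second, with medians of -0.20 and -0.43 against -0.03 and -0.01 over all loci. On the deposited scale those medians were -1.42 and -0.99.

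C1RL, a protease related to C1r, was at 87.3, 72.9 and 71.6 FPKM in the controls, 23.6, 26.3 and 27.5 FPKM in H/R, and 12.0, 12.2 and 12.4 FPKM in the GA+H/R libraries. It was not called in H/R versus control (-0.12 ± 0.08, limma adjusted p = 0.247) and fell by 0.40 ± 0.08 in GA+H/R versus H/R (adjusted p = 0.00560). With equal library totals its change in H/R versus control was -0.40 (adjusted p = 0.0126). CLU, the gene of clusterin, which binds the terminal complex, fell by 0.43 ± 0.05 and by 0.46 ± 0.05 in these comparisons (limma adjusted p = 1.58e-04 and 3.54e-04). CR1, a receptor and regulator of C3b, was at 4.55, 3.45 and 5.64 FPKM in the controls, 0.993, 1.56 and 1.18 FPKM in H/R, and 0.144, 0.109 and 0.163 FPKM in the GA+H/R libraries. CR1 fell by 1.10 ± 0.16 in GA+H/R versus H/R (limma adjusted p = 0.00120), and its change in H/R versus control was -0.27 ± 0.16 (adjusted p = 0.177), or -0.46 with equal totals (adjusted p = 0.0300). LRP1, a scavenging receptor, fell by 0.97 ± 0.11 and then by 0.93 ± 0.11 (limma adjusted p = 8.00e-05 and 3.77e-04).

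THBD, the gene of thrombomodulin, which promotes inactivation of complement peptides, was at 7.60, 12.9 and 12.8 FPKM in the controls, 9.27, 10.5 and 8.69 FPKM in H/R, and 1.91, 1.33 and 1.77 FPKM in the GA+H/R libraries. On this deposited scale H/R overlapped control, and GA+H/R lay below both. Relative to the median locus GA+H/R, at 4.53, 3.13 and 4.18, overlapped control, at 3.87, 7.12 and 7.25. THBD rose by 1.13 ± 0.21 in H/R versus control relative to the median locus (limma adjusted p = 0.00167), with -0.18 ± 0.19 (adjusted p = 0.393) on the deposited scale, or -0.41 (adjusted p = 0.0128) there without control 1. It fell by 1.62 ± 0.21 in GA+H/R versus H/R (adjusted p = 6.56e-04), and by 1.98 ± 0.19 on the deposited scale.

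ITGB2, the shared chain of leukocyte complement receptors, was listed at 0 FPKM in control 1 and at 3.03 and 2.84 FPKM in controls 2 and 3, at 1.61, 1.87 and 1.75 FPKM in H/R, and at 11.3, 14.2 and 11.1 FPKM in GA+H/R. VSIG4, a macrophage receptor of C3b, was at 1.39, 15.4 and 15.7 FPKM in the controls, 10.5, 7.69 and 7.54 FPKM in H/R, and 31.3, 32.7 and 42.3 FPKM in the GA+H/R libraries. Both were low in control 1 and higher in GA+H/R than in any other library. ITGB2 rose by 3.04 ± 0.33 and VSIG4 by 2.62 ± 0.58 in GA+H/R versus H/R (limma adjusted p = 2.79e-04 and 0.00893), with deposited changes of 2.26 ± 0.45 and 1.93 ± 0.64. In H/R versus control ITGB2 changed by 0.91 ± 0.33 (limma adjusted p = 0.0432), by 0.43 without control 1 (adjusted p = 0.0169), and by 0.76 with equal totals, where it was not called (adjusted p = 0.0794). On the deposited scale its change was 0.14 ± 0.45 (adjusted p = 0.776), or -0.52 (adjusted p = 0.00298) without control 1. VSIG4 was not called in that comparison (1.33 ± 0.58, adjusted p = 0.0809), while without control 1 it was at 0.50 (adjusted p = 0.0321), and at -0.81 (adjusted p = 0.00144) on the deposited scale without that library. C3AR1, the receptor of the C3a peptide, was not called in GA+H/R versus H/R (1.26 ± 0.49, adjusted p = 0.0797) or in H/R versus control (-0.73 ± 0.49, adjusted p = 0.233), where the deposited scale called it lower (-1.57 ± 0.42, adjusted p = 0.00547). C1QC, a chain of the recognition part of C1 that macrophages make, lay under the filter at 0.0315, 0.0520 and 0.0761 FPKM in the controls, 0.0713, 0.0287 and 0.0396 FPKM in H/R, and 0.456, 0.411 and 0.376 FPKM in the GA+H/R libraries. Its GA+H/R libraries lay above all others, as did those of the macrophage marker sum, and the part of macrophage RNA in these receptors was not tested.

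**Figure D4:**
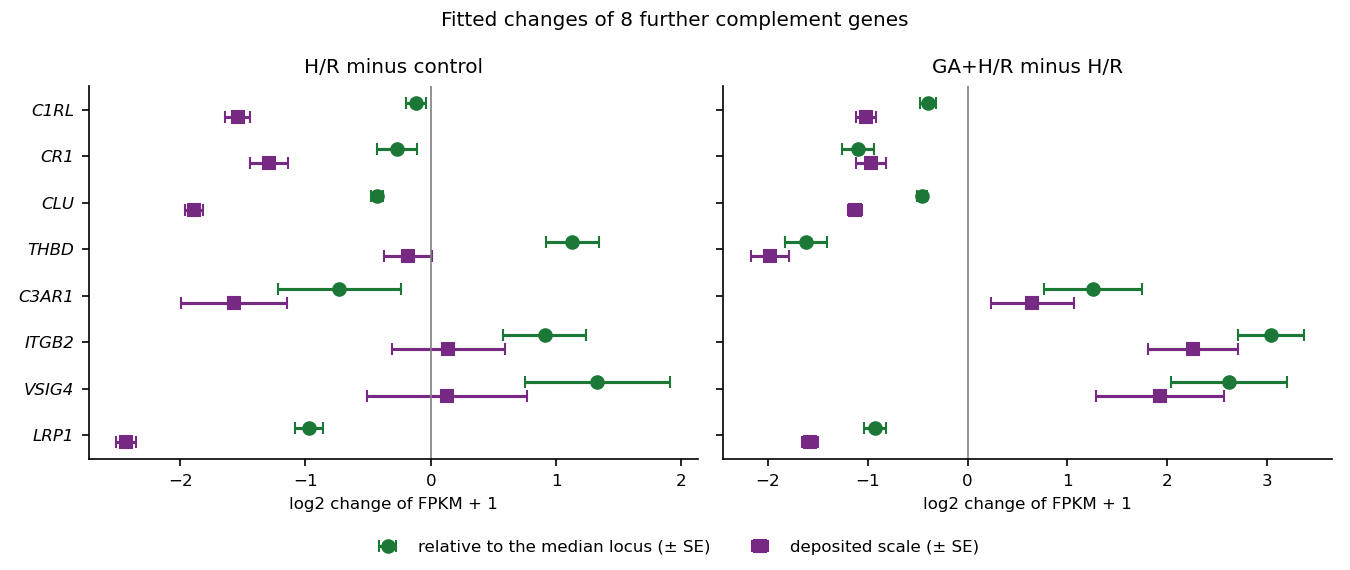
Log2 change of 8 further complement genes in H/R versus control (left) and in GA+H/R versus H/R (right), relative to the median locus (circles) and on the deposited scale (squares), each ± SE. CLU and LRP1 lie below 0 in both comparisons on both scales, and ITGB2 and VSIG4 lie above 0 in GA+H/R versus H/R.

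Other membrane regulators and receptors were low. CD46, a surface cofactor of factor I, was at 1.63, 0.506 and 0.746 FPKM in the controls, 0.516, 0.128 and 0.384 FPKM in H/R, and 0, 0 and 0.0142 FPKM in the GA+H/R libraries. CR2, a receptor of C3 fragments, was at 0.501, 1.10 and 1.19 FPKM in control and at 0.0572 or less in GA+H/R. A listing near 0 cannot be read as absence here, since CALR, the gene of the chaperone calreticulin that nearly all cells use, was listed at 0.0206 FPKM or less in every library. Of the terminal components C5, C7 and C9 had rows, with values of at most 0.126 FPKM.

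Genes that build the lipid anchor used by CD59 and CD55 were called in both directions, at shares near those of all loci in H/R versus control and in GA+H/R versus H/R. Of 26 listed, 23 were tested, and 5 rose and 8 fell in H/R versus control, where 27.6% of all loci were called higher and 28.9% lower, with a median of -0.16 (-1.24 on the deposited scale). DPM2, a subunit of the mannose donor synthase, rose by 2.07 (limma adjusted p = 3.16e-05), while the anchor enzymes PIGB, PIGK and PGAP1 changed by -1.34, -1.29 and -1.10. In GA+H/R versus H/R 4 rose and 3 fell, where 18.0% and 15.2% of all loci did, with a median of -0.13. PGAP3 fell by 1.0, and PIGF, PIGC and MPPE1 were higher by 0.88, 0.84 and 0.73, with 0.26, 0.19 and 0.14 on the deposited scale, where those 3 were not called. MPPE1 was not called with equal totals either (0.64, adjusted p = 0.0722). In GA+H/R versus control 7 rose and 11 fell, where 31.9% and 36.6% of all loci did, with a median of -0.35 (log2). Those called were led by DPM2 (2.43), PGAP1 (-1.76), PIGK (-1.50) and PIGP (1.34, or -0.74 on the deposited scale). PIGW and PIGM reached 1 FPKM only in the 3 controls, where their FPKM was highest, so the filter favoured a fall for them. Without control 1 they left the test. Of the 21 then tested, 5 rose and 7 fell in H/R versus control, where 30.7% and 29.1% of loci did. In GA+H/R versus control 7 rose and 9 fell, where 34.3% and 35.6% of loci did.

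Transcription factors and cytokine signals known to act on complement genes were listed as 33 genes, of which 28 were tested. In H/R versus control 11 rose and 8 fell, where 27.6% of all loci were called higher and 28.9% lower, with a median of 0.24 that became -0.87 on the deposited scale. CEBPD, an acute-phase transcription factor, rose by 1.40 ± 0.12 (limma adjusted p = 1.45e-05), from 254, 175 and 162 FPKM in control to 193, 190 and 177 FPKM in H/R, so its deposited levels overlapped. IL6ST, the signalling receptor of the interleukin-6 family, fell by 1.27 ± 0.07 (adjusted p = 9.04e-07) and by 2.72 on the deposited scale. IL1R1, the interleukin-1 receptor, fell by 0.92, and IL1A, its ligand, rose by 0.87, with -0.37 on the deposited scale. In GA+H/R versus H/R 5 of the 28 fell and the other 23 were not called, where 15.2% of all loci were called lower and 18.0% higher. TNFRSF1A, the main tumour necrosis factor receptor, fell by 0.73 ± 0.08 (limma adjusted p = 2.35e-04), IFNAR1, an interferon receptor chain, by 0.50, NFKBIA, the inhibitor of NF-κB, by 0.31, and STAT3 and IL6ST by 0.24 each. All 5 were called lower on the deposited scale too. In GA+H/R versus control 11 rose and 10 fell, where 31.9% and 36.6% of all loci did, led by IL1B (1.60, not called on the deposited scale, nor without control 1 at an adjusted p of 0.0558), IL6ST (-1.51), CEBPD (1.41, or -0.70 on the deposited scale) and IFNAR1 (-1.12).

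Markers of cell types that can make complement did not all move one way, and the macrophage markers are given beside C3. Of 15 fixed fibroblast markers 13 were in the table and 11 were tested. In H/R versus control 8 fell and 1 rose, where 28.9% of all loci were called lower and 27.6% higher. In GA+H/R versus H/R 6 fell and 1 rose, where 15.2% of all loci were called lower and 18.0% higher. On the deposited scale 11 and 7 were called lower, where 86.0% and 64.3% of all loci were. PDGFRA, 1 of the 11, reached 1 FPKM only in the 3 controls, where its FPKM was highest. None of the 13 was listed at 0 throughout a group. Their summed level was 129847 to 194313 FPKM in the controls, 29579 to 29648 FPKM in H/R and 13992 to 14149 FPKM in the GA+H/R libraries. C1R and C1S had this stepwise order on the deposited scale, and so did the summed FPKM of whole libraries. Among the controls, control 1 had the lowest sum of these markers, 129847 FPKM, and on the deposited scale the highest levels of C1R and C1S. Relative to the median locus control 1 was highest for C1R but not for C1S, which was at 315, 326 and 314 in controls 1, 2 and 3. Of 12 endothelial markers 10 were in the table and 3 were tested. PECAM1 rose in both comparisons, by 0.56 and 1.14 (limma adjusted p = 0.00407 and 2.38e-04). It reached 1 FPKM only in the 3 GA+H/R libraries, at 1.31, 1.43 and 1.05 FPKM, and was at 0.583 FPKM or less elsewhere. PECAM1 thus entered the test only through the group where it was highest, so the filter favoured a rise there. Relative to the median locus EMCN and FLT1 were not called in either of these comparisons, except EMCN in H/R versus control without control 1 (-1.37, limma adjusted p = 0.0358). In GA+H/R versus control 1 of the 3 was called lower without control 1, where 35.6% of loci were. On the deposited scale EMCN and FLT1 were called lower in H/R versus control, where PECAM1 was at 0.14 (adjusted p = 0.265), and PECAM1 was called higher in GA+H/R versus H/R. The summed endothelial level was 16.6 to 21.6 FPKM in the controls, 2.49 to 7.09 FPKM in H/R and 2.85 to 4.41 FPKM in the GA+H/R libraries, with 0, 2 and 4 of the 10 listed at 0 throughout these groups. Short and long housekeeping transcripts also moved apart. Of 22 short ones tested 21 were higher and 1 lower in H/R than in control, where 27.6% and 28.9% of all loci were. In GA+H/R versus H/R 18 were higher, where 18.0% of all loci were. On the deposited scale 9 of the short ones were called higher and 7 lower in H/R versus control, where 4.18% and 86.0% of all loci were. There 4 were called higher and 10 lower in GA+H/R versus H/R, where 1.69% and 64.3% of all loci were. Of 21 long ones 15 fell in H/R versus control and 13 in GA+H/R versus H/R, where 28.9% and 15.2% of all loci did. On the deposited scale all 21 were called lower in both, where 86.0% and 64.3% of all loci were. The parts of fibroblast and endothelial RNA and of transcript length in the complement results were not tested.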

How the data were processed

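Per the file headers, the authors deposited FPKM (fragments scaled to transcript length and to the size of the library) in a column per library, beside a p-value and a q-value of their own test over all groups. The aligner, the counter and how libraries were scaled are not given in the sources used here. As to builds, the submitters' processing notes list the builds GRCm38 and mm10 (mouse) without their role, while the table's transcripts are from rabbit, so coordinates were left out. Without counts the depth is unknown, and precision rests on the spread of 3 libraries. Loci at 1 FPKM or more in at least 3 libraries were kept. A library's scale was its median ratio to the mean library, and after scaling 1 was added. The log2 values were fitted over all 9 libraries with limma 3.58.1 (R 4.3.3, eBayes, trend and robust settings, two-sided, Benjamini-Hochberg over all loci tested, threshold 0.05). The code was tested on simulated data. The members and lists were chosen with earlier results of these data known. An item of the complement lists is not reported here and was left out of their counts. All 9 members were named whatever they showed, with up to 4 called genes of largest change per list and the 3 most similar loci per tested member. Alternatives were other scalings, filters, pseudocounts and fits, and leaving out each library. The deposited scale without control 1, and no filter with 0.01 added, were chosen after seeing the data.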

Additional observations from a re-analysis of the deposited data

How the results depend on the processing

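The calls of C1R and C1S in all 3 comparisons, and of SERPING1 in both comparisons with control, kept their direction and side of the threshold in the 21 alternatives run. On the deposited scale 9922 loci were called in H/R versus control and 7255 in GA+H/R versus H/R, in place of 6218 and 3652, and 7643 in the latter without control 1. There 5 members were called lower in GA+H/R versus control, with or without control 1, and 4 in GA+H/R versus H/R without control 1. The changes that turned and were called on the deposited scale were CFB in H/R versus control (-0.99, or -0.42 without control 1), SERPING1 in GA+H/R versus H/R (-0.46, also without control 1), CFB in GA+H/R versus control (-1.90, or -1.33) and CD59 in GA+H/R versus control (-1.33, or -0.86). CD59 also turned, not called on either scale, in H/R versus control (0.40 to -0.84, or -0.38 without control 1) and in GA+H/R versus H/R (0.05 to -0.49, also without control 1). That scale keeps the shift of the median locus, and the cause of that shift was not tested. Leaving out 1 library at a time gave 5266 to 6286 loci in H/R versus control, 2659 to 4489 in GA+H/R versus H/R and 6559 to 7345 in GA+H/R versus control. Members called higher ranged from 0 to 2 in both comparisons with control, the 2 being CFB and CD59 without control 1.

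A replicate block gave 6039, 3355 and 7395 loci in the 3 comparisons and changed no call of a member. The numbers were not taken as pairing, since deviations of same-numbered libraries correlated at -0.021 to 0.026. The FPKM table gives no read depth, which limits what can be said of C3 and CFI.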

Other observations

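Loci that the table names by number and describes as complement proteins were picked out after their values were seen. A locus described as integrin alpha-M, the partner of ITGB2 in complement receptor 3, was at 0, 0.0592 and 0.0556 FPKM in controls 1, 2 and 3, at 0.107, 0.0272 and 0.0678 FPKM in H/R, and at 0.245, 0.317 and 0.269 FPKM in GA+H/R. Its GA+H/R libraries lay above all others, as those of ITGB2 did. A locus described as complement C5 was at 0.242, 0.0869 and 0.0984 FPKM in control and listed at 0 in all GA+H/R libraries. C5AR1, the main receptor of the C5a peptide, lay under the filter at 0, 0.0231 and 0.0514 FPKM in control, 0.0498, 0.0817 and 0.0301 FPKM in H/R, and 0.205, 0.170 and 0.140 FPKM in GA+H/R, so the GA+H/R libraries were the highest for this receptor too. C5AR2, the other C5a receptor listed and also under the filter, went the opposite way. Its GA+H/R libraries reached at most 0.0507 FPKM, while every other library was at 0.107 FPKM or more. Relative to the median locus its GA+H/R libraries, at 0.0698 to 0.120, lay below H/R (0.159 to 0.270) and overlapped control. C4A, the classical pathway component cleaved by C1s, was at 1.54, 0.872 and 0.646 FPKM in control, 0.567, 0.466 and 0.454 FPKM in H/R, and 0.158, 0.185 and 0.296 FPKM in GA+H/R. Relative to the median locus its groups overlapped, and the H/R mean, 0.739, lay above that of control (0.544) and of GA+H/R (0.503).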
